A study of Homo sapiens with 6 samples.

Results

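Oncofetal genes are expressed in the fetal liver and return in many hepatocellular carcinomas (HCC). Many of them, though not all, fall silent or nearly so in the adult organ. Fetal and adult liver were not profiled here, so a return of any single gene was not tested. Expression of 10 of them was examined here in Hep3B cells, an established human HCC line that makes alpha-fetoprotein. The genes were taken from a list and matched to the tables by Ensembl identifier. They were the secreted protein AFP, the surface proteins GPC3, EPCAM and DLK1, the growth factor IGF2, the retrotransposon-derived imprinted gene PEG10, the RNA-binding proteins LIN28B, IGF2BP1 and IGF2BP3, and the transcription factor SALL4. All 10 were among the 23406 features of the tables, and all 10 passed the filter on low counts together with 14071 features in all.

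The study asked how loss of NXN (nucleoredoxin, a thioredoxin-like redox protein) acts in HCC, and the profiling set NXN-depleted Hep3B cells against control cells. All 6 libraries came from Hep3B cells with the genotype given as WT, which received lentivirus and were selected in puromycin for a week. The 3 shControl libraries carried a control shRNA and the 3 shNXN libraries an shRNA against NXN, with 1 library of each group from day 7, day 9 and day 11. The labels call these days after transfection in one place and days after selection in another, and they do not say which NXN shRNA was sequenced. Nothing states that the days came from separate cultures, so the p-values measure the spread between these libraries, which may be technical. In bulk RNA, fewer expressing cells and less RNA per cell cannot be told apart.

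The genes represent several layers of one developmental programme. LIN28B blocks the maturation of let-7 microRNAs, which repress many fetal messages, and the IGF2BP proteins bind and stabilise such messages. IGF2 is the main fetal growth factor of the liver, and GPC3 is a heparan sulfate proteoglycan of the surface of HCC cells. AFP is the classical serum marker of the tumour, and EPCAM, DLK1 and SALL4 mark hepatic progenitors.

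Counts summed to between 15349382 and 16332589 per library. NXN itself, the target of the shRNA (chr17:799313-979770, minus strand), was at 180.6, 137.6 and 143.2 CPM (counts scaled to a common library size) in the shControl libraries of days 7, 9 and 11, and at 42.7, 47.5 and 39.5 CPM in the shNXN libraries. The groups did not overlap, and the log2 fold change was -1.83 (standard error, SE, 0.16; edgeR adjusted p = 0.0378, by its quasi-likelihood F test and the Benjamini-Hochberg procedure). The adjusted p from edgeR was 0.131, 0.0633, 0.225 and 0.162 when the shControl library of day 7 or day 11 or the shNXN library of day 7 or day 9 was left out, and the log2 fold change then ran from -1.90 to -1.67. Each of 10 hepatocyte markers was present, with a summed level of 15612.7 to 24742.5 FPKM (fragments scaled to transcript length and depth) in shControl and 17772.8 to 18023.5 in shNXN. Summed cholangiocyte markers were at 384.0 to 733.0 FPKM in shControl and 529.0 to 668.8 FPKM in shNXN. Of 6 fibroblast and stellate markers, COL1A2, COL3A1, DCN and LUM were under 1 FPKM in every library. The others, COL1A1 and PDGFRB, reached 1 FPKM in at least 1 library. The 6 together were at 2.38 to 3.35 FPKM in shControl and 2.3 to 4.39 FPKM in shNXN. VWF, KDR and CD3E were listed at 0 in every library. Summed leukocyte markers were at 46.9 to 53.1 FPKM in shControl and 59.9 to 77.1 FPKM in shNXN, with PTPRC and CD3E under 1 FPKM throughout. The part of this difference in the results was not tested.

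The 10 genes spanned a wide range of levels. By FPKM, which scales for length, the median over the 6 libraries was 854.1 for AFP, 519.1 for IGF2, 283.6 for EPCAM and 236.1 for GPC3, all of them above the level of 96.9% of the tested features or more. IGF2BP3 followed at a median of 66.9 FPKM and IGF2BP1 at 54.4 FPKM. DLK1, LIN28B, SALL4 and PEG10 were low, with medians of 6.19, 3.58, 3.16 and 1.88 FPKM. The lowest IGF2 library (454.7 FPKM) was above the highest EPCAM library (398.5 FPKM), the lowest GPC3 library (161.5 FPKM) above the highest IGF2BP3 library (76.2 FPKM), and the lowest IGF2BP1 library (41.5 FPKM) above the highest DLK1 library (9.00 FPKM). The other neighbours in this order overlapped in range. The order of IGF2BP1 and IGF2BP3 and of DLK1 and LIN28B turned around when CPM was divided by the length of the longest annotated transcript.

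Whether NXN depletion changed the oncofetal genes was read from the fit over all features. A gene was called where its adjusted p was under 0.05. Without the replicate block edgeR called 0 of the 10 genes and 3.39% of all tested features. At an unadjusted p under 0.05 there were 4 of the 10, against 32.9% of the features. Of these IGF2BP1 had a positive difference (background 11.6%) and AFP, LIN28B and IGF2BP3 a negative one (background 21.3%). DESeq2 called 1 of the 10, IGF2BP1, as higher (background 22.7%, with 5.81% higher). The days pair the libraries, and with the day as a block edgeR also called IGF2BP1 alone, as higher (background 23.3%, with 6.28% higher and 17.0% lower). The median log2 fold change of the 10 genes was -0.23 and that of all features 0.03, and 7 of the 10 were negative. By CPM the groups did not overlap in 5 of the 10 genes (AFP, LIN28B, IGF2BP1, IGF2BP3 and SALL4) and in 40.6% of all features. For each of these 5 the exact two-sided permutation test on log2 CPM gave p = 0.1, the smallest that 3 against 3 libraries allow. By FPKM the groups of LIN28B and IGF2BP1 stayed apart, but those of AFP, IGF2BP3 and SALL4 overlapped. On day 11 AFP was at 889.2 FPKM in shNXN and 819.1 FPKM in shControl. IGF2BP3 was at 44.8 to 76.2 FPKM in shNXN and 55.4 to 71.0 FPKM in shControl, and SALL4 at 2.87 to 5.73 and 1.89 to 3.28 FPKM.

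**Figure D1:**
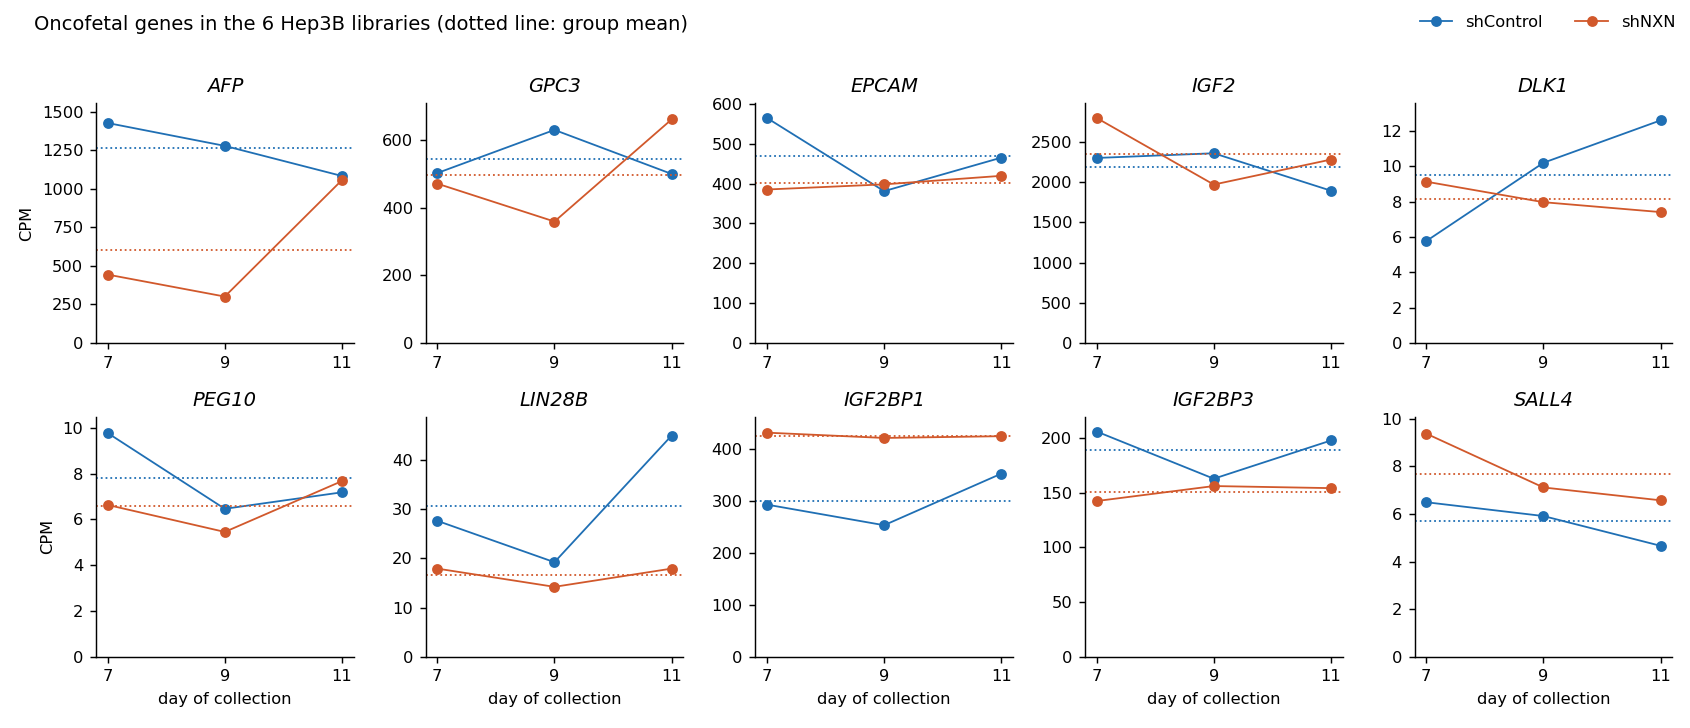
CPM (counts scaled to a common library size, linear axes from 0) of each oncofetal gene by day of collection, with 1 library per point, shControl in blue and shNXN in orange; dotted lines are the means of the 3 libraries of a group. The 3 shNXN points lie above all shControl points for IGF2BP1 and SALL4 and below them for AFP, LIN28B and IGF2BP3, and AFP is at 1056.2 CPM in shNXN on day 11 beside 1082.9 CPM in shControl.

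AFP (ENSG00000081051, chr4:73431138-73456174 in the GRCh38 annotation, plus strand) encodes alpha-fetoprotein, the main serum protein of the fetus. It was at 1426.3, 1278.0 and 1082.9 CPM in the shControl libraries of days 7, 9 and 11. In the shNXN libraries of the same days it was at 443.9, 301.4 and 1056.2 CPM. The shNXN values were well below the controls on days 7 and 9 and close to the control on day 11, and only a narrow margin kept the groups from overlapping. The group means were 1262.4 ± 172.2 and 600.5 ± 401.1 CPM (SD, n = 3), and the log2 fold change of -1.07 (SE 0.43) did not pass the test (edgeR adjusted p = 0.138). By day, the log2 difference was -1.68, -2.08 and -0.04. With the shNXN library of day 11 left out, AFP stood at -1.76 in log2 fold change and was called (edgeR adjusted p = 0.00229), where 25.8% of features were, and 21.4% were called lower.

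Among days 7 and 9 alone, a comparison chosen after seeing the data, the AFP log2 fold change was -1.86 (SE 0.19, edgeR adjusted p = 0.000615) and 31.8% of features were called. The interaction between group and day 11 was likewise chosen after seeing the data. Day 11 has 1 library per group, so day and library cannot be told apart in it. The interaction put the log2 difference on day 11 at 1.82 above that of days 7 and 9 (SE 0.33). This had an unadjusted p of 0.000775 and an adjusted p of 0.101 from edgeR, and 0 of the 10 genes and 0.0355% of all features passed it. Only AFP and GPC3 among the 10 had an unadjusted p under 0.05 for this interaction, and the share of all features at that threshold is not given here. After GC correction the interaction was 1.35 for AFP, 0.81 for GPC3 and -1.26 for LIN28B. The unadjusted p values from edgeR were 0.000554, 0.0274 and 0.00376 and the adjusted p values 0.149, 0.375 and 0.22. These 3 are named because they alone of the 10 had an unadjusted p under 0.05 in that fit. The share of all features at that threshold is not given for it either.

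AFP belongs to a family of serum protein genes with ALB (albumin) and AFM (afamin) beside it on chromosome 4 and the vitamin D-binding protein gene, symbol GC, farther off on the same chromosome. These were taken from a list of the cluster and its regulators. ALB was at 9565.9, 13654.9 and 6954.6 CPM in shControl and 1420.3, 683.0 and 7249.6 CPM in shNXN on days 7, 9 and 11. The vitamin D-binding protein gene was at 1986.8, 2361.7 and 2038.1 CPM in shControl and at 962.4, 822.2 and 1914.3 CPM in shNXN. AFM was scarce, with 57, 45 and 11 counts in shControl and 0, 0 and 6 counts in shNXN. By CPM all 4 genes were thus low in shNXN on days 7 and 9 and nearer to the control on day 11. FPKM gave the same picture for AFP, ALB and AFM but not for the vitamin D-binding protein gene, which was at 1693.3, 1713.7 and 2315.2 FPKM in shControl and higher on days 7 and 9 in shNXN, at 2210.7, 2090.8 and 2021.1 FPKM. The transcript length implied by count and FPKM differed up to 3.44 times between libraries for this gene. The log2 fold changes by counts over all days were not called for ALB, the vitamin D-binding protein gene and AFM (edgeR adjusted p = 0.186 for ALB, 0.134 for the vitamin D-binding protein gene and 0.0715 for AFM). DESeq2 called AFM (log2 fold change -4.23, adjusted p = 0.00321), and with each library left out the edgeR value of this scarce gene ran from -8.27 to -3.59.

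**Figure D2:**
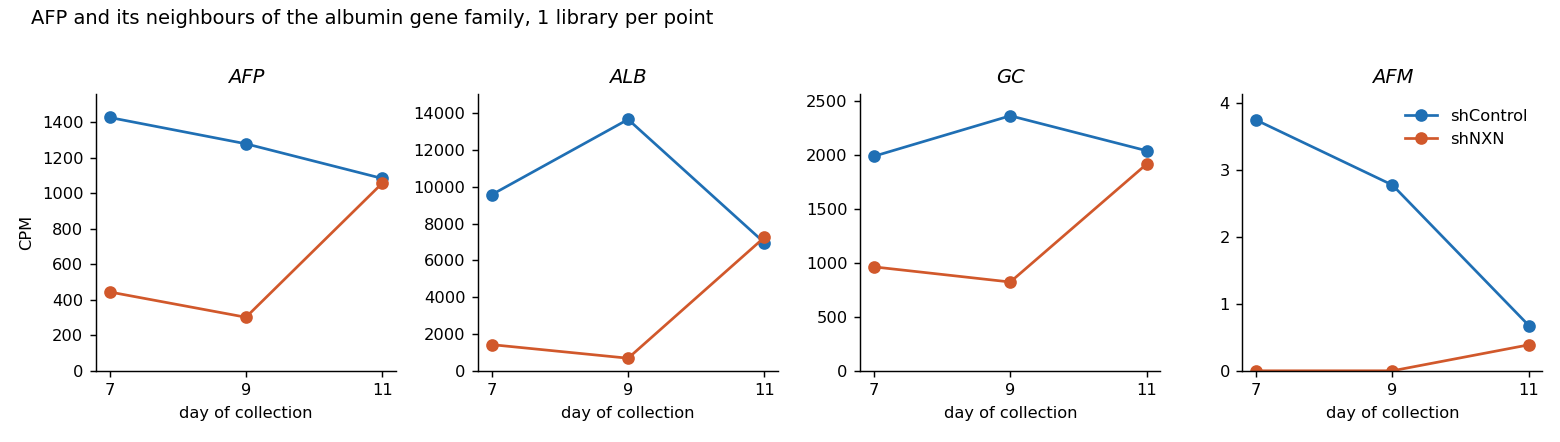
CPM of AFP, ALB, GC (vitamin D-binding protein) and AFM by day of collection, with 1 library per point, shControl in blue and shNXN in orange, on linear axes from 0. In each panel the shNXN points of days 7 and 9 lie well below the shControl points, and on day 11 they approach them, with ALB at 7249.6 CPM in shNXN and 6954.6 CPM in shControl.

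The promoters of AFP, ALB and AFM are shown as promoters of the cluster that hold the letters GTTAAT. The presence of these letters in each of them was thus fixed by the choice. The vitamin D-binding protein gene was also low by CPM in the same libraries, and its promoter is not shown here. The promoter table, taken from RefSeq (GRCh38.p14), held 3 of the 10 oncofetal genes, AFP, LIN28B and IGF2BP3. Promoters ran from 250 bases before the gene's start in that table over 300 bases. For AFP, ALB and AFM this start lies inside the GENCODE span, which opens at an outer start farther upstream. They were searched on both strands for GTTAAT, a short motif known from liver promoters, and for TATAAA. The first is held by 6.88% of all 35116 promoters and the second by 11.5%. In the AFP promoter (chr4:73435971-73436270, plus strand, whole) capitals mark GTTAAT, which begins 132 bases before the start, and TATAAA, which begins 29 bases before it, with no overlap between them. In the stretches of ALB (chr4:73404214-73404243, plus strand) and AFM (chr4:73481596-73481625, plus strand) capitals mark GTTAAT, which begins 61 and 137 bases before the start.
AFP: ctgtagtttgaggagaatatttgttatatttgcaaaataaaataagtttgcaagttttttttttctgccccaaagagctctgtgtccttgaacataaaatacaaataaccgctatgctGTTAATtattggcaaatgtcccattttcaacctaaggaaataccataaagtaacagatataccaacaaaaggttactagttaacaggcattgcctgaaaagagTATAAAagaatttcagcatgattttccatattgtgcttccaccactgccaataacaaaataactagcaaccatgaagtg
ALB: aagatgagtctaGTTAATaatctacaatta
AFM: tttttttttctgGTTAATatttagcaagaa
A match to these letters is a description of the sequence, and binding was not measured. The LIN28B and IGF2BP3 promoters held no GTTAAT.

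Of the 16 tested genes of the AFP cluster and its regulators, 0 were called without the block by edgeR and 3, among them the liver factors HNF4A and CEBPA, were called higher with it. The shares of all features called with the block (23.3%, with 6.28% higher and 17.0% lower) are the background for this list and for those that follow. The genes with the smallest p on this list were AFM and NR5A2, a nuclear receptor of liver, at -0.45 on the log2 scale (SE 0.15, edgeR adjusted p = 0.103). ZHX2 and ZBTB20, repressors of AFP after birth, had log2 fold changes of 0.34 (SE 0.26) and 0.14 (SE 0.33) and were not called. The features whose log2 CPM followed AFP most closely over the 6 libraries, among 10624 compared, were CWF19L2 (Pearson r = 0.998) and UGGT1 (r = 0.997), given as a description over libraries that share depth and GC trends.

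GPC3 (ENSG00000147257, chrX:133535745-133985895, minus strand), a cell surface proteoglycan used as an HCC marker, was at 502.8, 630.4 and 500.2 CPM in shControl. In shNXN it was at 471.5, 359.4 and 661.4 CPM. Its lowest and its highest value were both in shNXN, on days 9 and 11, so the groups overlapped (log2 fold change -0.13, SE 0.23, edgeR adjusted p = 0.708). By day, the log2 difference was -0.09, -0.81 and 0.40. Such a change of sign between days was seen in 5 of the 10 genes and in 31.6% of all features. The interaction with day 11 was 0.85 (SE 0.31), with an unadjusted p of 0.0268 and an adjusted p of 0.283 from edgeR. RNF145 (r = 0.991) and SDHC (r = 0.984) had the patterns most like it over the 6 libraries.

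Of 18 tested genes for glypicans and heparan sulfate handling, 0 were called without the block by edgeR. With the block 2 were called, SDC1 (syndecan-1, another surface proteoglycan) higher and HS2ST1, a heparan sulfate 2-O-sulfotransferase, lower. SDC1 was at 168.6, 199.5 and 140.7 CPM in shControl and 253.9, 276.2 and 222.2 CPM in shNXN (log2 fold change 0.56, edgeR adjusted p = 0.0814 without and 0.0234 with the block). After GC correction the log2 fold change of SDC1 was 0.21 and was not called (edgeR adjusted p = 0.474 without and 0.299 with the block). HS2ST1 was at 114.3, 90.0 and 234.3 CPM in shControl and 43.9, 44.4 and 82.2 CPM in shNXN (log2 fold change -1.36, edgeR adjusted p = 0.0843 without and 0.0142 with the block). By CPM the groups did not overlap for either gene. By FPKM the groups of HS2ST1 overlapped, at 21.9, 27.8 and 41.0 in shControl and 25.9, 26.1 and 27.0 in shNXN (limma, log2 fold change -0.15, adjusted p = 0.676). Its log2 fold change by counts was -0.80 without the shControl library of day 11 and -0.08 once the block was joined to the GC correction. Among other glypicans, GPC6 had a log2 fold change of -0.40 (SE 0.15), GPC1 of 0.38 (SE 0.14) and GPC4 of -0.16 (SE 0.34), and none was called.

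EPCAM (ENSG00000119888, chr2:47345158-47387601, plus strand), an epithelial adhesion molecule of hepatic progenitors, was at 564.5, 381.0 and 465.0 CPM in shControl. In shNXN it was at 385.1, 398.0 and 419.4 CPM, a narrow range that lay inside the lower part of the control range. The log2 fold change was -0.23 (SE 0.16, edgeR adjusted p = 0.341), and it was -0.054 without the shControl library of day 7. Of 11 tested genes of the list for the progenitor surface and lineage, 1 was called without the block. This was PROM1 (CD133), a surface marker of progenitors, which was at 283.7, 243.6 and 237.6 CPM in shControl and lower by counts in shNXN, at 135.2, 93.7 and 153.1 CPM. The groups did not overlap (log2 fold change -1.0, SE 0.20, edgeR adjusted p = 0.0493). With the block SOX9 was called higher beside it. CD44, CD9 and CLDN7, which are partners or relatives of EPCAM in other epithelia, were under 1 CPM in every library.

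IGF2 (ENSG00000167244, chr11:2129112-2149603, minus strand) was the most abundant of the 10 by CPM. It was at 2302.4, 2360.8 and 1895.3 CPM in shControl and at 2800.0, 1971.4 and 2282.6 CPM in shNXN. The groups overlapped, and the log2 fold change was 0.11 (SE 0.17, edgeR adjusted p = 0.675). HSPG2 and VNN3P (r = 0.959 for both) had the patterns most like it over the 6 libraries. Of its receptors, IGF1R signals, IGF2R clears the ligand and INSR binds it as well. IGF1R and IGF2R had log2 fold changes of 0.18 (SE 0.13) and 0.15 (SE 0.18), and INSR was at 111.8 to 115.7 CPM in shControl and 131.3 to 139.2 CPM in shNXN. The INSR groups did not overlap, and its log2 fold change of 0.24 was not called (SE 0.11, edgeR adjusted p = 0.181).

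Of 11 tested genes of the IGF2 axis, 0 were called without the block by edgeR and 2, the binding proteins IGFBP1 and IGFBP3, were called higher with it. IGFBP1 was at 29.8, 7.38 and 39.2 CPM in shControl and 79.2, 27.2 and 68.4 CPM in shNXN. The groups overlapped, but the shNXN library was higher than the control of the same day on each of the 3 days (log2 fold change 1.19, edgeR adjusted p = 0.216 without and 0.0230 with the block). IGFBP3 was at 254.4, 140.7 and 167.6 CPM in shControl and 300.1, 209.3 and 254.2 CPM in shNXN, again higher on each day (log2 fold change 0.44, edgeR adjusted p = 0.244 without and 0.0443 with the block). IGF1 and IGFBP2 did not pass the filter, with at most 1.04 CPM and 0.246 CPM. IGF2BP2, the relative of IGF2BP1 and IGF2BP3 on this list, was at 78.1 to 94.9 CPM in shControl and 106.7 to 113.5 CPM in shNXN and was not called (log2 fold change 0.33, SE 0.13, edgeR adjusted p = 0.133).

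DLK1 (ENSG00000185559, chr14:100725705-100738224, plus strand), a paternally expressed surface protein of fetal hepatoblasts, was at 5.77, 10.2 and 12.6 CPM in shControl. In shNXN it was at 9.13, 7.97 and 7.41 CPM. The shNXN value was the higher on day 7 and the lower on days 9 and 11 (log2 fold change -0.22, SE 0.32, edgeR adjusted p = 0.636). PEG10 (ENSG00000242265, chr7:94656325-94669695, plus strand) was at 9.77, 6.46 and 7.18 CPM in shControl and 6.63, 5.45 and 7.67 CPM in shNXN. The groups overlapped (log2 fold change -0.24, SE 0.26, edgeR adjusted p = 0.529). The log2 fold change of PEG10 was -0.028 without the shControl library of day 7 and -0.12 without the shNXN library of day 9. DLK1 had 88 to 206 counts per library and PEG10 89 to 149.

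PEG10 starts within the annotated span of SGCE on the opposite strand (chr7:94524204-94656572), and the strand setting of the counting is not given in the sources used here. SGCE was at 23.6 to 26.6 CPM in shControl and 22.7 to 28.8 CPM in shNXN. With the block and GC correction together, SGCE was the 1 gene of the 8 lists that was called (log2 fold change 1.59, SE 0.16, edgeR adjusted p = 0.0377), against 0.07 (SE 0.18) with neither, at a transcript GC content of 34.2%. PEG10 was the 1 gene of the 10 whose sign differed by FPKM, as it did in 11.8% of features. Its fold change was 0.25 on the log2(FPKM + 1) scale (limma, adjusted p = 0.496), where the median of all features was 0.13 against 0.03 by counts. Count and FPKM together imply the transcript length used for each library, and for PEG10 this ran from 2014 to 5737 bases. It differed by more than 1.5 times between libraries in 4 of the 10 genes (PEG10, IGF2BP1, IGF2BP3 and SALL4) and in 31.8% of features.

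Of 16 tested imprinted genes, 0 were called without the block by edgeR, and with it PPP1R9A, CASD1 and ZDBF2 were called lower and GRB10 higher. CASD1 and PPP1R9A lie beside PEG10. CASD1, a sialic acid O-acetyltransferase, was at 12.8, 7.51 and 19.9 CPM in shControl and at 3.1, 3.0 and 4.9 CPM in shNXN (log2 fold change -1.87, edgeR adjusted p = 0.0537 without and 0.0156 with the block). PPP1R9A was at 37.3, 44.1 and 42.4 CPM in shControl and at 18.3, 11.9 and 24.9 CPM in shNXN (log2 fold change -1.17, edgeR adjusted p = 0.0604 without and 0.0310 with the block). ZDBF2 was at 7.01 to 8.13 CPM in shControl and 1.72 to 3.54 CPM in shNXN (log2 fold change -1.46, edgeR adjusted p = 0.0534 without and 0.0232 with the block). By CPM the shNXN values of all 3 genes were below every control value. Their transcripts have a low GC content, 40.1% for PPP1R9A, 38.5% for CASD1 and 38.1% for ZDBF2. With the GC trend of each library removed, their log2 fold changes were -0.305, -0.741 and -0.342. None of the 3 was then called (edgeR without the block, adjusted p = 0.433, 0.251 and 0.576). By FPKM the shNXN libraries of CASD1 were at 0.89, 2.14 and 5.68 and its controls at 3.62, 3.01 and 5.91 (limma, log2 fold change -0.56, adjusted p = 0.403), and the shNXN library of day 7 was above the lowest control for PPP1R9A (4.75 against 4.72 FPKM).

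The RNA-binding members LIN28B, IGF2BP1 and IGF2BP3 are known in development as parts of the let-7 network. The mature let-7 microRNAs share the seed at bases 2 to 8, shown in capitals for 3 of the 8 family members in the RefSeq table.
hsa-let-7a-5p: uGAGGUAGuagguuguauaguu
hsa-let-7d-5p: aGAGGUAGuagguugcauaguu
hsa-let-7g-5p: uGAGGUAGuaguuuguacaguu
The letters CTACCTC, the match to this seed, were searched on the sense strand of the longest GENCODE 29 transcript of each gene. They were found in 5 of the 10 oncofetal genes and in 23.5% of the 18999 protein-coding transcripts searched, which differ in length. LIN28B held 5 matches, 4 of them in its 3′ UTR, IGF2BP1 held 4, all in its 3′ UTR, and SALL4 held 3, of which 1 was in the 3′ UTR. IGF2BP3 held 1 in its 3′ UTR and IGF2 held 1 in its 5′ UTR. The matches of IGF2BP1 (chr17:49051061-49051083, plus strand), LIN28B (chr6:105078812-105078834, plus strand) and IGF2BP3 (chr7:23311795-23311817, minus strand) nearest the coding sequence in the 3′ UTR are shown as DNA letters, with the match in capitals.
IGF2BP1: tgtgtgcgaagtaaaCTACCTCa
LIN28B: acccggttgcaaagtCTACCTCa
IGF2BP3: tgcatttttactcaaCTACCTCa
The levels of let-7 microRNAs were not measured in these libraries.

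IGF2BP1 (ENSG00000159217, chr17:48997412-49055650, plus strand) binds fetal messages such as that of IGF2. It was at 293.1, 253.4 and 352.7 CPM in the shControl libraries of days 7, 9 and 11. In shNXN it was at 431.7, 421.5 and 424.9 CPM. All shNXN values were above all control values and were closer together than these (means of 426.0 and 299.7 CPM, SD 5.22 and 50, n = 3). The log2 fold change was 0.51 (SE 0.15), with an adjusted p of 0.0793 without the block and 0.0403 with it from edgeR, and 0.0286 from DESeq2. By day, the log2 difference was 0.56, 0.73 and 0.27. Of the 10 genes IGF2BP1 had the smallest adjusted p. Once the GC trend of each library had been removed the log2 fold change was 0.38 (edgeR adjusted p = 0.272 without the block and 0.178 with it).

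LIN28B (ENSG00000187772, chr6:104936616-105083332, plus strand) was at 27.6, 19.2 and 44.9 CPM in shControl and at 17.9, 14.2 and 17.9 CPM in shNXN. The shNXN libraries were below all controls, with the widest gap on day 11, where the control was highest. The log2 fold change was -0.88 (SE 0.32, edgeR adjusted p = 0.116 without the block and 0.0521 with it). Without the shControl library of day 11 the log2 fold change was -0.43 (edgeR adjusted p = 0.267). LIN28A, its close relative, was at 0 to 0.129 CPM. IGF2BP3 (ENSG00000136231, chr7:23310209-23470467, minus strand) was at 205.7, 162.6 and 197.5 CPM in shControl and at 142.2, 155.9 and 154.0 CPM in shNXN. The groups were separated by a few CPM on day 9 (log2 fold change -0.32, SE 0.14, edgeR adjusted p = 0.150). IGF2BP1 and IGF2BP3, which are paralogs, thus had fold changes of opposite sign by counts, neither called without the block, and both were positive after GC correction (log2 fold changes of 0.38 and 0.59).

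Of 16 tested genes of the LIN28 and let-7 axis, 1 was called without the block. This was ARID3A, a transcription factor, which was at 385.6, 346.4 and 407.3 CPM in shControl and higher by counts in shNXN, at 719.5, 710.9 and 596.2 CPM in shNXN. The groups did not overlap (log2 fold change 0.83, SE 0.13, edgeR adjusted p = 0.0452). With the block 8 were called, where 23.3% of all features were, ARID3A and the chromatin protein HMGA1 higher and 6 lower, which included the uridylyltransferases TUT4 and TUT7, the nuclease DICER1 and HMGA2. TUT4 was at 81.6 to 89.6 CPM in shControl and 34.5 to 55.8 CPM in shNXN (log2 fold change -1.03, edgeR adjusted p = 0.0511 without and 0.0265 with the block). By FPKM the groups of TUT4 overlapped, at 28.97 to 36.32 in shControl and 27.16 to 49.44 in shNXN, and after GC correction its log2 fold change was -0.17. HMGA2 was at 99.4 to 118.6 CPM in shControl and 67.0 to 88.7 CPM in shNXN (log2 fold change -0.51, edgeR adjusted p = 0.0856 without and 0.0415 with the block). The direction of HMGA2 turned by FPKM, with 39.8, 33.1 and 30.4 in shControl and 71.4, 69.2 and 36.7 in shNXN, and after GC correction, at a log2 fold change of 0.64 over all days and 0.85 on days 7 and 9 (edgeR adjusted p = 0.00653 on those days). HMGA1 was higher in shNXN by CPM, with 599.5 to 680.7 CPM in shControl and 807.8 to 955.6 CPM in shNXN (log2 fold change 0.47, edgeR adjusted p = 0.0697 without and 0.0410 with the block), and its log2 fold change was 0.10 after GC correction.

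SALL4 (ENSG00000101115, chr20:51782331-51802520, minus strand), a zinc finger factor of stem cells and fetal liver, was at 6.49, 5.91 and 4.66 CPM in shControl and at 9.37, 7.11 and 6.57 CPM in shNXN. The lowest shNXN value was just above the highest control value, and each shNXN library was above the control of its day, at 76 to 154 counts per library. The log2 fold change was 0.43 (SE 0.26, edgeR adjusted p = 0.265). SALL1 had a log2 fold change of 0.57 (SE 0.21) and SALL2 of -0.03 (SE 0.22), and SALL3 was at 0 to 0.0613 CPM. Of 19 tested genes of the SALL family, pluripotency factors and NuRD partners, 1 was called without the block. This was CRBN, the substrate receptor through which thalidomide has SALL4 degraded, which was at 39.2, 43.9 and 39.5 CPM in shControl and lower by counts in shNXN, at 12.4, 10.5 and 20 CPM (log2 fold change -1.51, SE 0.27, edgeR adjusted p = 0.0452). By FPKM the CRBN groups overlapped, at 23.4, 78.1 and 23.2 in shControl and 28.2, 28.0 and 26.9 in shNXN (limma, log2 fold change -0.33, adjusted p = 0.613). With the block, MTA1 was called higher and HDAC2 lower beside it.

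Of 18 tested genes among other HCC markers, 1 was called without the block, SQSTM1 (p62), an autophagy receptor. It was at 936.8, 810.5 and 867.6 CPM in shControl and higher by counts in shNXN, at 1371.8, 1701.8 and 1314.1 CPM in shNXN (log2 fold change 0.75, SE 0.14, edgeR adjusted p = 0.0473). With the block 3 genes were called higher and 3 lower, among them the growth factor midkine (MDK) and the mitotic genes BIRC5 and TOP2A. Over the 8 lists, 4 of 124 tested genes were called without the block and 30 with it, where 3.39% and 23.3% of all features were. Without it ARID3A and SQSTM1 were higher (background 0.185%) and PROM1 and CRBN lower (background 3.21%). Each of these 4 lost its call when any single library other than the shNXN library of day 11 was left out, with adjusted p values from edgeR between 0.0544 and 0.225. Each also lost it after GC correction, with adjusted p values from edgeR between 0.154 and 0.552 and log2 fold changes of 0.47 for ARID3A, 0.40 for SQSTM1, -0.50 for PROM1 and -0.29 for CRBN. None of the 4 was called by limma on log2(FPKM + 1), where the fold changes were 0.97, 0.76, -0.43 and -0.33 (adjusted p = 0.0515, 0.0603, 0.178 and 0.613).

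**Figure D3:**
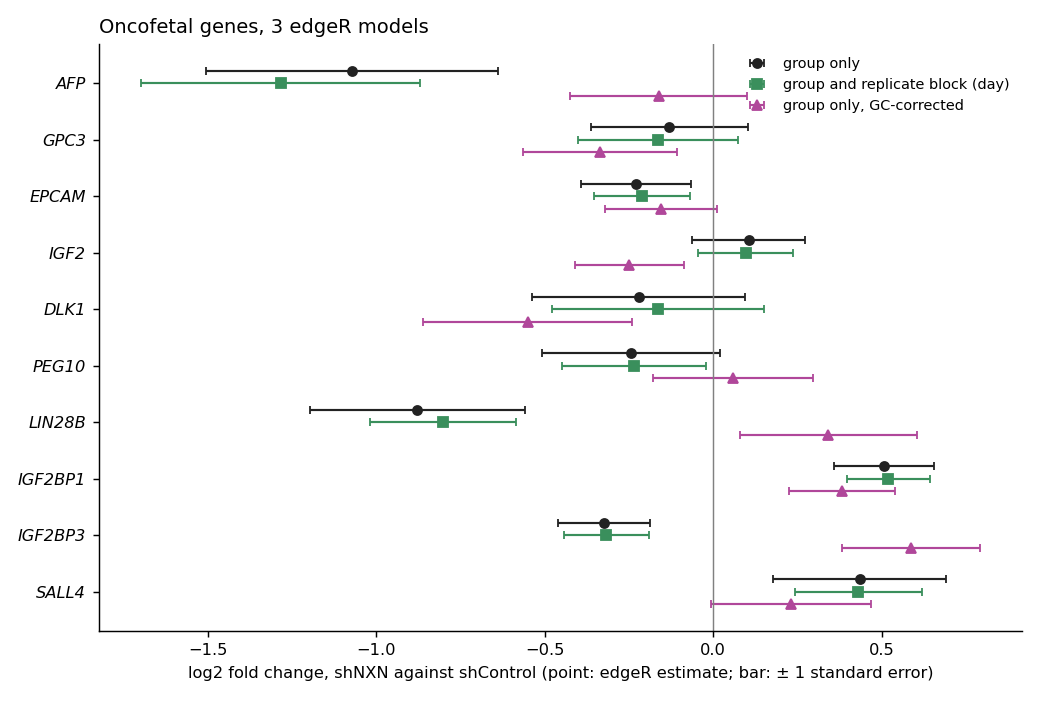
log2 fold change of shNXN against shControl (horizontal axis) for each oncofetal gene from 3 edgeR models, with bars of ± 1 standard error, for 3 libraries per group. Black circles are the fit on group alone, green squares the fit with the day as a block and purple triangles the fit on group after GC correction; the triangles of LIN28B and IGF2BP3 lie at 0.34 and 0.59, on the other side of 0 from their circles at -0.88 and -0.32.

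Fold changes followed the GC content of the transcripts in these libraries. Over all tested features the median log2 fold change was -1.09 for the 1702 with a transcript GC content of 36 to 40%, -0.62 for the 2256 at 40 to 44%, and 0.36 for the 1241 at 60 to 64%. AFP (38.8% GC) and LIN28B (38.1% GC) had log2 fold changes of -1.07 and -0.88, near the median of features of their GC content. IGF2BP3 (40.5% GC), at -0.32, was above the median at 40 to 44% and just below its upper quartile (-0.27). IGF2BP1 (49.6% GC), at 0.51, was above the upper quartile of 0.31 for 48 to 52% GC, as was SALL4 (51.3% GC), while GPC3 (51.4% GC), at -0.13, was below the lower quartile of -0.05. DLK1 (55.6% GC) and IGF2 (60.4% GC) were below the lower quartiles of their bins, 0.15 and 0.25.

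**Figure D4:**
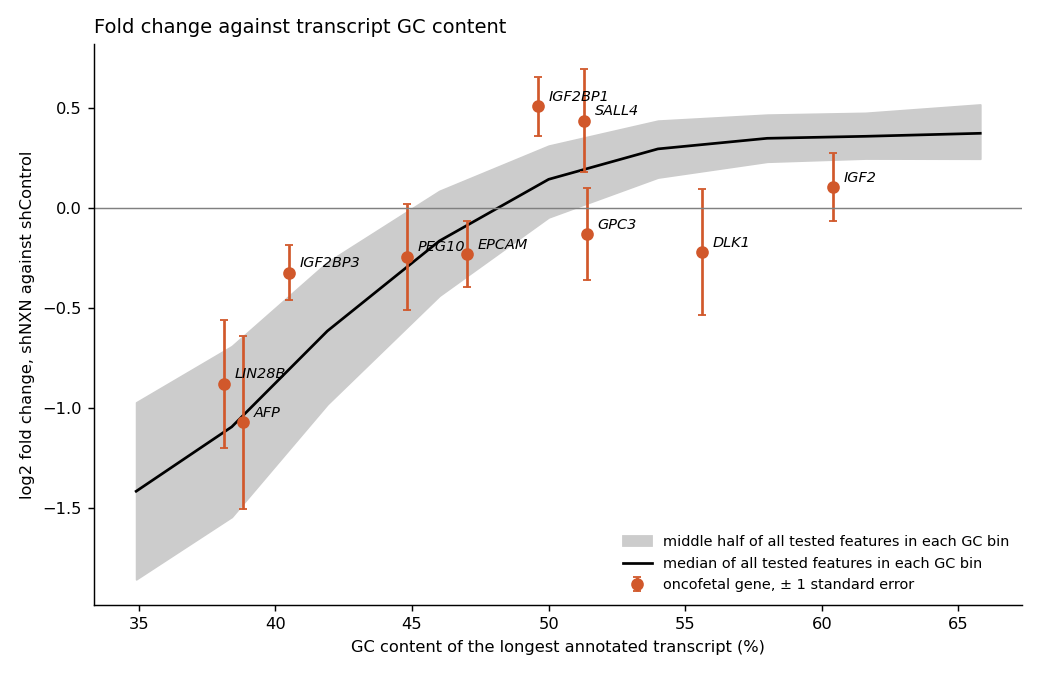
log2 fold change of shNXN against shControl (vertical axis) against the GC content in percent of the longest annotated transcript (horizontal axis); orange points are the oncofetal genes with ± 1 standard error, the black line is the median of all tested features by GC bin and the grey band the range between their quartiles. AFP and LIN28B lie close to the line at 38.8% and 38.1% GC, IGF2BP1, SALL4 and IGF2BP3 lie above the band, and GPC3, DLK1 and IGF2 lie below it.

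A correction that removed the GC trend of each library moved the log2 fold change of AFP to -0.16 (SE 0.26), of LIN28B to 0.34 (SE 0.26) and of IGF2BP3 to 0.59 (SE 0.21). The sign differed from that of the uncorrected fit in 4 of the 10 genes, IGF2, PEG10, LIN28B and IGF2BP3, and in 34.0% of all features. With this correction edgeR called 0 of the 10 genes and 0.0355% of the features. With the block as well it called 0 of the 10 and 0.924% of the features. In both fits IGF2BP1 and IGF2BP3, both positive, had an unadjusted p under 0.05 from edgeR. The share of all features at that unadjusted threshold is not given here for these fits, so these 2 have no background to be read against. The correction removes any difference that follows GC content, and whether that difference is biological or technical was not tested. On days 7 and 9 with the correction, a combination chosen after seeing the data, 5 of the 10 were called where 14.4% of features were. AFP and GPC3 were lower (background 7.90%), with log2 fold changes of -0.63 and -0.64 (edgeR adjusted p = 0.0222 and 0.0441). LIN28B, IGF2BP1 and IGF2BP3 were higher (background 6.48%), with log2 fold changes of 0.78, 0.56 and 0.75 (edgeR adjusted p = 0.0319, 0.0288 and 0.0216).

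Whether the oncofetal genes moved with time was tested over the 3 days in a fit with group and day. The edgeR test called 0 of the 10 genes at the adjusted threshold and 0 at an unadjusted p under 0.05. Of all features, 0.00% passed the first and 21.4% the second. LIN28B had the smallest p of the 10 (edgeR adjusted p = 0.271). Within a group the day and the library cannot be told apart.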

How the data were processed

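RNA was sequenced from 6 Hep3B libraries. The authors deposited an estimated count per feature and library and, in a second table, FPKM (a fragment level scaled to length and depth). The aligner, counter and annotation are not given in the sources used here. The submitters' processing notes list the mouse builds GRCm38 and mm10, whereas the identifiers are human, so the build is uncertain and the gene coordinates come from GENCODE 29 (GRCh38) by identifier, of which 18966 of 20314 had a symbol. Estimated counts share ambiguous reads among transcripts, so paralogs and overlapping genes have uncertain values, and 3092 features are assembled loci without a gene name. There were 0 columns without a sample.

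Rounded counts entered edgeR 4.0.16 in R 4.3.3 (TMM, filterByExpr, quasi-likelihood test, Benjamini-Hochberg adjustment, threshold 0.05). The standard error was the log2 fold change divided by the square root of F. CPM values used TMM library sizes, and daily differences are of log2(CPM + 0.5). Replicates of a group differed beyond sampling noise (chi-square per gene 21.1 to 82.9). The labels number replicates by day, and deviations from the group means correlated at 0.359, 0.337 and 0.482 within days and between -0.401 and 0.162 across days. The main fit had the group alone and ignored this pairing, and the day was used as a block in an alternative fit. Alternatives were DESeq2 1.42.0, factors by RLE, no factors beyond library size, no filter, a minimum of 10 counts per library, the block, a GC correction (natural spline, 5 degrees of freedom, as an offset), limma 3.58.1 on log2(FPKM + 1) and log2(FPKM + 0.1), an unadjusted p and each library left out. Fits on days 7 and 9 alone and the interaction with day 11 were added after seeing the data. The edgeR fits without and with the block and the test over days were run on simulated counts. These had a single dispersion and no GC trend, and those for the group fits had no day effect. They therefore do not show how the fits behave on these libraries, and the other fits were not simulated.

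The 10 genes and 8 lists, written from general knowledge (161 genes, 154 in the table, 124 tested), were chosen with earlier results of these data known. Named are NXN, the 10 genes, up to 4 called genes of each list or else the 2 with the smallest p, and the 2 features most correlated with AFP, GPC3 and IGF2 at a mean of at least 5 CPM. Other list genes were chosen after their values were seen. H19 and MEG3 were not analysed here, and some genes of the lists are not reported here. Motifs were counted with Python 3.11.15. Experiments other than this profiling were not analysed here.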

Additional observations from a re-analysis of the deposited data

Results flagged for a closer look

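In 5 of the 10 oncofetal genes the difference between shNXN and shControl had opposite signs on different days, as it did in 31.6% of all tested features. With 1 library per group and day, the difference between single days was not tested. The test of day 11 against days 7 and 9 together gave adjusted p values from edgeR between 0.283 and 0.943 for these genes. In the order of days 7, 9 and 11, GPC3 differed by -0.093, -0.81 and 0.40 on the log2 scale. EPCAM differed by -0.55, 0.063 and -0.15. IGF2 differed by 0.28, -0.26 and 0.27. DLK1 differed by 0.62, -0.33 and -0.73, and PEG10 by -0.53, -0.23 and 0.09.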

How the results depend on the processing

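The count of 10 oncofetal genes called was 0 and was also 0 with factors by RLE, no factors beyond library size, no filter, a minimum of 10 counts per library, GC correction without or with the replicate block, and limma on FPKM. It was 1 with the replicate block and with DESeq2, 2 on days 7 and 9 alone, 5 on those days with GC correction and 4 at an unadjusted p, and it ran from 0 to 1 with each library left out. The 477 features called became 826 by RLE, 929 without factors beyond library size, 818 unfiltered, 3272 with the replicate block, 3128 with DESeq2, 4519 on days 7 and 9 (2042 with GC correction), 5 with GC correction (130 with the block as well), 287 with limma on log2(FPKM + 1), 66 on log2(FPKM + 0.1) and 4625 at an unadjusted p. With each library left out edgeR called 0 to 3706. It called 0 without the shControl library of day 7 or day 11 or the shNXN library of day 7 or day 9 (2668 to 4229 at an unadjusted p), 248 without the shControl library of day 9 and 3706 without the shNXN library of day 11. NXN ran from -1.90 to -1.67.

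Signs turned as follows; the cause was not tested. GPC3 was 0.007 without the shControl library of day 9 and 0.06 without the shNXN library of day 9, and ran from -0.39 to 0.06 with each library left out. IGF2 was -0.25 with GC correction, -0.27 with GC correction and the replicate block, -0.35 on days 7 and 9 with GC correction and -0.036 without the shNXN library of day 7, and ran from -0.036 to 0.22 with each library left out. DLK1 was 0.099 without the shControl library of day 11 and 0.101 on days 7 and 9, and ran from -0.452 to 0.099 with each library left out. PEG10 was 0.059, 0.079 and 0.004 under the same 3 GC-corrected fits and 0.25 and 0.35 with limma on FPKM. LIN28B was 0.34, 0.36 and 0.78, IGF2BP3 0.59, 0.56 and 0.75, and NR5A2 0.51, 0.50 and 0.54 under the GC-corrected fits, and HS2ST1 was 0.18 on days 7 and 9 with GC correction.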
